A study of Rattus norvegicus with 9 samples.

Results

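The adrenergic receptor genes were followed here across Sham, I/R and DHI brains. They comprise 8 genes (Adra1a, Adra1b, Adra1d, Adra2a, Adra2b, Adra2c, Adrb1 and Adrb3), taken as the non-control probes that carry those symbols in the array files, out of 19589 gene symbols on the array. Each gene had 1 probe, and each of the 8 probes was well above background on all 9 arrays. The arrays were Agilent SurePrint G3 Rat one-color arrays hybridized with RNA from the brain hemisphere on the infarcted side of Sprague Dawley rats, with 3 arrays in each of 3 groups. Sham rats had the operation without occlusion and received solvent. I/R rats had the middle cerebral artery blocked by a nylon suture for 2 h and then reperfused, and DHI rats had the same occlusion and reperfusion followed by daily tail vein injection of Danhong injection, a medicine made from Salvia miltiorrhiza and safflower. Tissue was taken at day 14 in all 3 groups. According to the methods, rats entered as successful models only above a set neurological deficit score. The study calls the 3 arrays of a group biological replicates, and since nothing in the labels ties an array to a rat, p-values measure only the spread between these arrays.

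Adrenergic receptors are G protein-coupled receptors for noradrenaline and adrenaline. The alpha-1 receptors couple through Gq to phospholipase C and calcium, the alpha-2 receptors through Gi and Go to lower adenylyl cyclase activity, and the beta receptors through Gs to raise it. In the brain the noradrenaline comes mainly from locus coeruleus axons, and neurons, astrocytes and blood vessels carry different sets of these receptors.

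Levels are given as the log2 of the processed spot signal minus the log2 of the 75th percentile of the same array, called the log2 level below. A level can be set against the same gene on another array but not against another gene, because probes differ in brightness. Changes were tested with limma over all 23747 probes that passed the background filter. A change was called where the unadjusted p was below 0.05 and the fold change above 1.5, which are the study's thresholds, and the Benjamini-Hochberg adjusted p over those 23747 probes is printed beside it. The 3 I/R arrays enter both I/R versus Sham and DHI versus I/R, so an I/R array that is low by chance lowers one comparison and raises the other. The Sham and I/R arrays were scanned on 1 slide and the DHI arrays on another, and what DHI did cannot be told apart from what the slide did. Rats that lost cells of a type and rats whose cells hold less of an RNA likewise cannot be told apart in tissue of this kind.

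Several arrays stood apart within their own group. The summed signal of 6 neuronal markers (Rbfox3, Snap25, Syt1, Stmn2, Tubb3 and Camk2b) was 9.46%, 18.3% and 49% of the Sham mean on I/R 1, I/R 2 and I/R 3, and 33.9%, 106.7% and 76.1% on DHI 1, DHI 2 and DHI 3. The summed signal of 6 microglia and macrophage markers was 1686%, 1341% and 608% of the Sham mean on the I/R arrays and 904%, 128% and 152% on the DHI arrays. DHI 1 thus lay nearer to the I/R arrays in both lists, and I/R 3 was the I/R array nearest to Sham in both. The 5 choroid plexus markers summed to 13320%, 19450%, 1063% and 10630% of the Sham mean on I/R 3, DHI 1, DHI 2 and DHI 3, but to 158% and 282% on I/R 1 and I/R 2. Such a sum weighs the brightest probe most, and the split among the I/R arrays was not shared by every marker. Folr1, named after its values were seen, had a log2 level of -5.29 ± 1.09 over the Sham and -0.78 ± 0.51 over the I/R arrays (SD, n = 3). The part of any of these in the receptor values was not tested. For the tissue itself, all 6 neuronal, all 6 astrocyte and all 6 oligodendrocyte markers were well above background on every array.

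**Figure D1:**
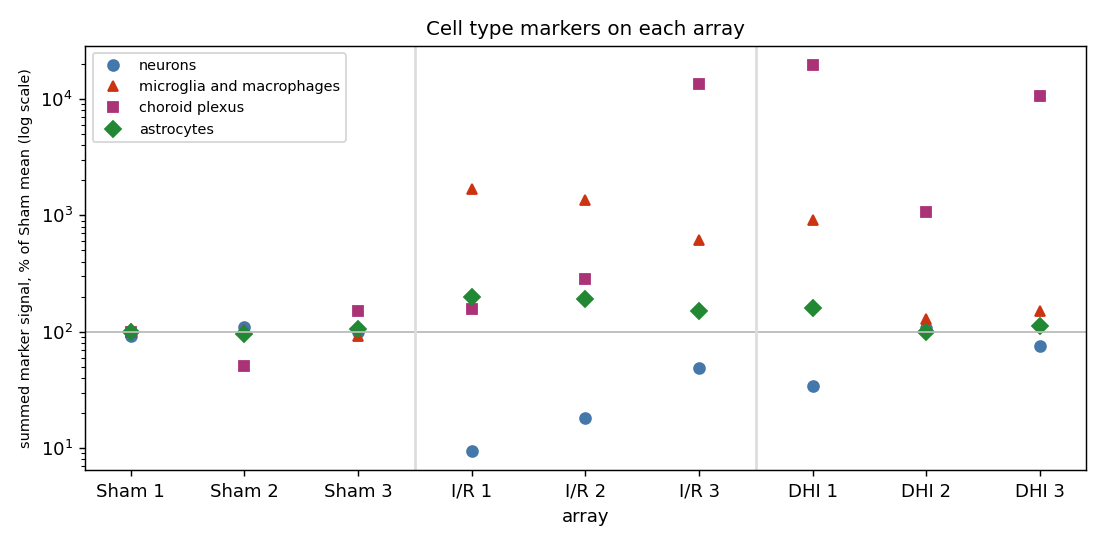
Summed signal of 4 cell type marker lists on each of the 9 arrays, as a percentage of the Sham mean on a log axis. Neuronal markers sit lowest on I/R 1, I/R 2, DHI 1 and I/R 3, and microglia and macrophage markers highest on I/R 1, I/R 2, DHI 1 and I/R 3.

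The 4 genes called in I/R versus Sham are shown by the 250 bases before their RefSeq start (GRCr8, gene strand, 5′ to 3′), since these are the 4 that fell past the thresholds. The RefSeq table held 6 of the 8 genes, and Adra1a and Adrb3 were not matched in it. Capitals mark matches, on either strand, to the motifs searched.
Adra1b (chr10:28814348-28814597, minus strand, 70.8% GC): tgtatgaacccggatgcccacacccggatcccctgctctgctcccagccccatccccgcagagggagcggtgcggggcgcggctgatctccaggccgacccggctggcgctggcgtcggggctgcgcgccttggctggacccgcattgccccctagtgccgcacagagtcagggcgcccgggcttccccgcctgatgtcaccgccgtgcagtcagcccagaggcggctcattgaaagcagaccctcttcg
Adra1d (chr3:139262332-139262581, minus strand, 64.0% GC): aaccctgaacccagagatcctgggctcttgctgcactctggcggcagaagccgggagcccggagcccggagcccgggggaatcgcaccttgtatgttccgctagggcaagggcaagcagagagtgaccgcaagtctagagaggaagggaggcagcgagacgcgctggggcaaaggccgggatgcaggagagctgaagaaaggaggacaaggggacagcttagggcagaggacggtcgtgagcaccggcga
Adra2c (chr14:79697477-79697726, minus strand, 80.4% GC): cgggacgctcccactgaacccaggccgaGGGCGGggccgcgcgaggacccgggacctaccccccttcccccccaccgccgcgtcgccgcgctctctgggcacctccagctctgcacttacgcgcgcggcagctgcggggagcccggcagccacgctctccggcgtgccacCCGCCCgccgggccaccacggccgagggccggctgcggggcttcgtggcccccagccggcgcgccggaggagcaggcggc
Adrb1 (chr1:265776853-265777102, plus strand, 72.0% GC): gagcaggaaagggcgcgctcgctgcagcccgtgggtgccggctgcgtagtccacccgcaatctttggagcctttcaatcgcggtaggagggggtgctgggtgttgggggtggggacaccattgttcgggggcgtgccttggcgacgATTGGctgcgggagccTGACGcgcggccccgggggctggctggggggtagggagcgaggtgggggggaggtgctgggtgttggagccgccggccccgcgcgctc

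Sets of letters known as promoter motifs were looked for on both strands of that window. The full cAMP response element TGACGTCA was in none of the 6 genes and in 1.59% of all 33469 RefSeq rat promoters of this length. Its shorter form TGACG, which also lies inside the full element, was in Adrb1 alone of the 6, beside 18.2% of all promoters. The GC box GGGCGG was in Adra2b and Adra2c, beside 30.5% of all promoters. CCAAT was in Adrb1, read as its reverse complement, beside 34% of all promoters, and TATAAA was in none of the 6, beside 12.9%. Adra1b and Adra1d held none of the 5 motifs in these letters. A match here is a description of the letters and not a bound site.

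In I/R versus Sham, 4 of the 8 receptor genes fell and none rose. The 4 were Adra1b, Adra1d, Adra2c and Adrb1, which include members of the alpha-1, alpha-2 and beta classes. Of all tested probes 43.1% were called in this comparison and 22.3% were called lower, so the receptors' share of lower calls was read against 22.3%. At an adjusted p below 0.05, Adra1d and Adrb1 remained, 2 of 8, beside 31.5% of all probes and 15.1% of all probes lower. Every one of the 8 fold changes was below 1, while 45.3% of all tested probes were higher in I/R by sign. The median log2 difference was -1.32 for the receptors and -0.10 for all tested probes. The 3 I/R arrays lay below all 3 Sham arrays for 5 of 8 (Adra1a, Adra1b, Adra1d, Adra2b and Adrb1), beside 35.8% of all probes lower and 62.5% in either direction.

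In DHI versus I/R, 3 of the 8 rose, and none fell past the thresholds. These were Adra1b, Adra1d and Adrb3. Of all tested probes 21.9% were called, and 11.5% were called higher. None of the 8 passed an adjusted p of 0.05 in limma, which 0.00421% of all probes did, and 3 of 8 had an unadjusted p below 0.05, beside 25.4% of all probes. The median log2 difference was 1.24 for the receptors and 0.10 for all tested probes. By sign 7 of the 8 were higher in DHI and Adra2a was lower, beside 56.9% of all tested probes higher. The 3 DHI arrays lay above all 3 I/R arrays for Adrb3 alone, 1 of 8, beside 5.51% of all probes higher and 9.53% in either direction.

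In DHI versus Sham, 0 of the 8 were called in limma, 0 of 8 had an unadjusted p below 0.05, and 0 of 8 had groups that did not overlap. The background was 3.58% of all probes called, 5.45% with an unadjusted p below 0.05 and 18.6% without overlap. The log2 differences ran from -0.90 for Adrb1 to 0.58 for Adrb3, with a median of -0.25 beside 0.02 for all probes. The 95% intervals were wide, from -2.94 to 2.26 for Adra1d as an example, so the absence of calls does not show that the DHI and Sham levels were the same.

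**Figure D2:**
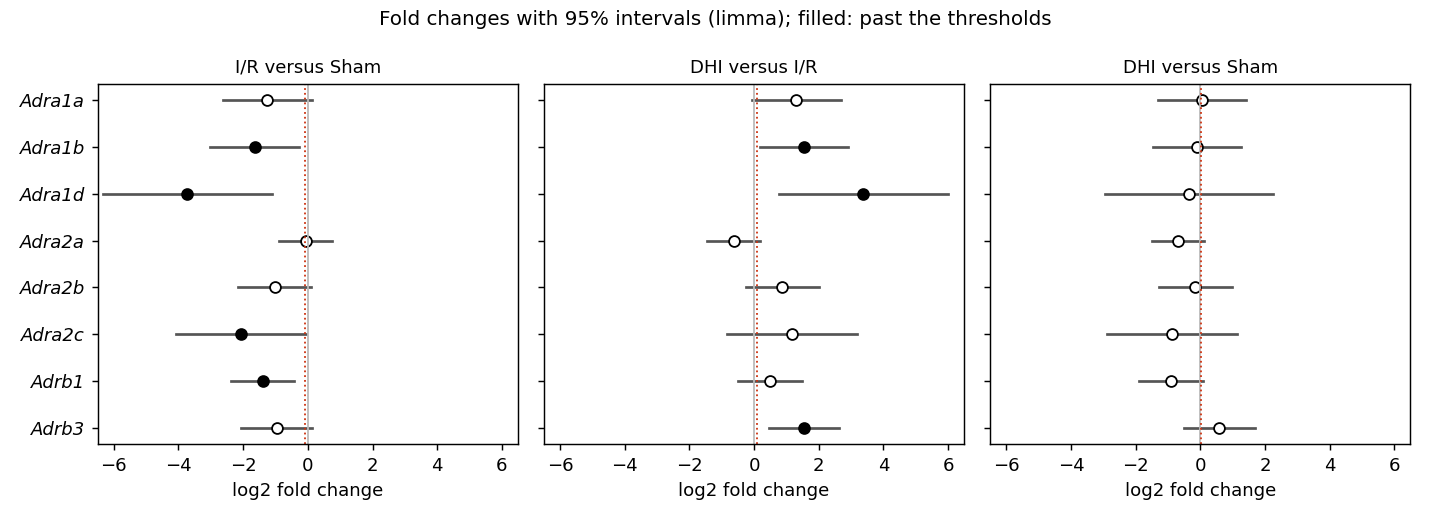
Log2 fold change of each receptor gene in the 3 comparisons, with limma's 95% interval as the bar, zero as the grey line and the median of all tested probes as the dotted line. Filled points are the 4 genes called in I/R versus Sham and the 3 called in DHI versus I/R.

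Among the alpha-1 receptors, Adra1d showed the largest log2 difference of the 8 genes in both comparisons. Its log2 level was 0.19, 1.44 and 1.5 on the Sham arrays, -4.35, -3.86 and 0.17 on the I/R arrays, and -0.27, 1.57 and 0.80 on the DHI arrays. I/R 1 and I/R 2 stood far below the other 7 arrays, while I/R 3 lay just under the lowest Sham array and above DHI 1. The fall in I/R versus Sham was 13.2-fold (log2 difference -3.72, SE 1.13, adjusted p = 0.043), and the rise in DHI versus I/R was 10.4-fold (log2 difference 3.38, SE 1.13, adjusted p = 0.196). Without I/R 3 the fall became -5.15 and the rise 4.81 on the log2 scale. The fall was called with each of the 9 arrays left out in turn but not by the methods' t-test, whereas the rise was lost without I/R 1 (2.55), I/R 2 (2.79) or DHI 2 (2.95). The Adra1d probe (rn4 chr3:119280059-119280118, minus strand, as the array file gives it) was printed as 10 spots, which spread by at most 0.20 on the log2 scale within an array.

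Adra1b had tight Sham and I/R groups and a split DHI group. Its log2 level was 0.70, 1.17 and 1.00 on the Sham arrays, -0.87, -0.65 and -0.54 on the I/R arrays, and -0.71, 1.98 and 1.28 on the DHI arrays. DHI 1 sat inside the range of the I/R arrays, and DHI 2 and DHI 3 lay above every Sham array. The log2 levels averaged 0.96 ± 0.24 over the Sham, -0.69 ± 0.17 over the I/R and 0.85 ± 1.39 over the DHI arrays (SD, n = 3). The gene fell 3.12-fold in I/R (log2 difference -1.64, SE 0.59, adjusted p = 0.0624) and rose 2.90-fold in DHI versus I/R (log2 difference 1.54, SE 0.59, adjusted p = 0.196). The fall was not called without Sham 2, Sham 3, I/R 1 or I/R 2 (-1.66 to -1.54), and the rise was not called without any 1 of the 3 I/R arrays (1.45 to 1.61), without DHI 2 (0.97), without DHI 3 (1.33), with no scaling (1.08), with only the 2 groups compared or by the methods' t-test. The SE pools the spread of all 3 groups, the DHI arrays included. The probe lies at chr10:28889094-28889153 on the minus strand of rn4.

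Adra1a followed the arrays of Adra1b closely but passed in neither comparison. Its log2 level was -3.80, -4.08 and -4.11 on the Sham arrays, -5.35, -5.42 and -4.96 on the I/R arrays, and -5.53, -2.91 and -3.39 on the DHI arrays. Sham and I/R were separated by 0.85 between their nearest arrays, yet DHI 1 was the lowest of all 9 arrays and DHI 2 and DHI 3 the highest. The log2 difference was -1.25 (SE 0.60, adjusted p = 0.125) in I/R versus Sham and 1.30 (SE 0.60, adjusted p = 0.202) in DHI versus I/R. With only the Sham and I/R arrays in the fit, which all came from 1 slide, the same -1.25 had an SE of 0.18 and passed the thresholds, and without DHI 1 both comparisons passed, with a log2 difference of 2.10 in DHI versus I/R. Across the 9 arrays the Pearson correlation of Adra1a with Adra1b was 0.966, over points that share the same arrays and groups. The probe lies at chr15:46263114-46263173 on the plus strand of rn4.

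**Figure D3:**
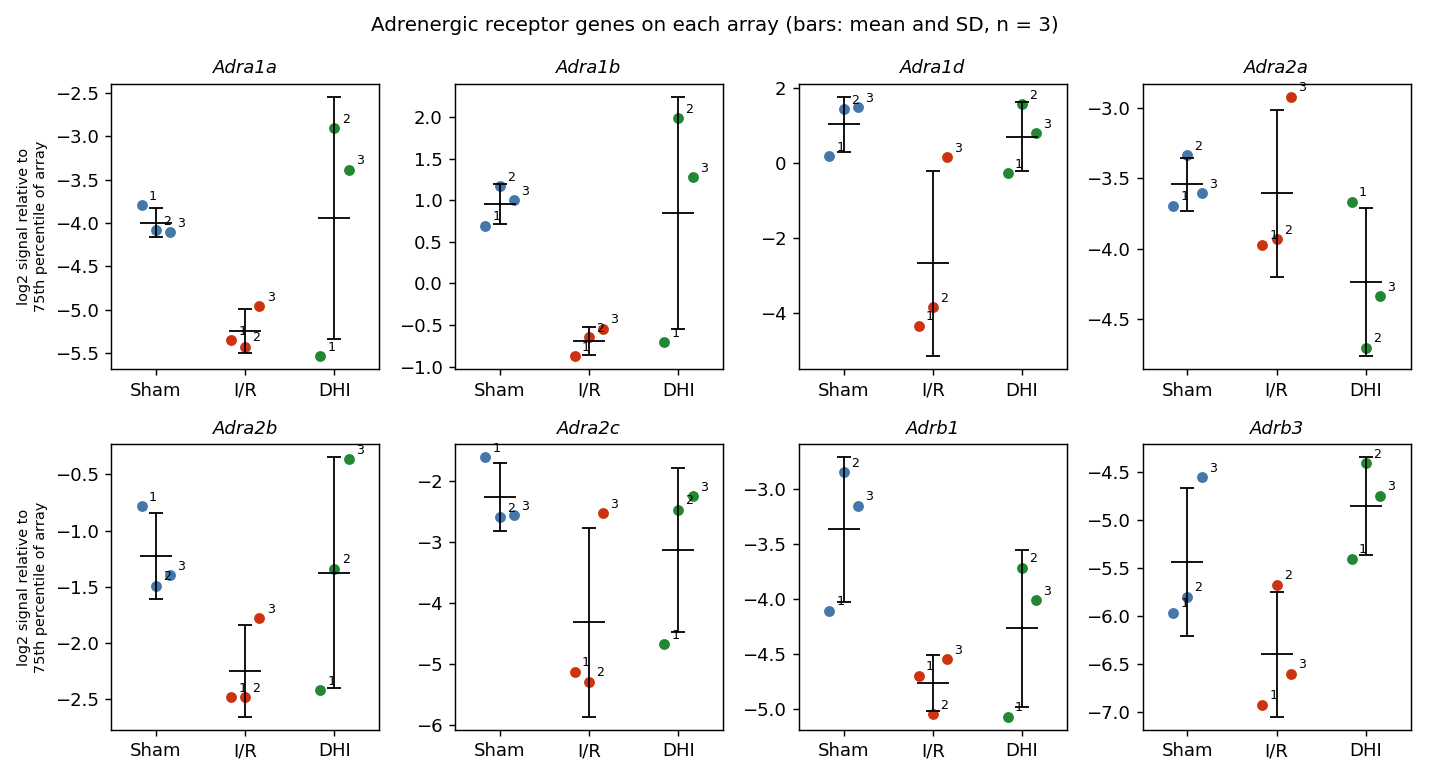
Log2 level of each receptor gene on each array (vertical axis, relative to the 75th percentile of that array), with the replicate number beside each point and the mean and SD of 3 arrays as bars. DHI 1 is the lowest DHI array in 7 of 8 panels and I/R 3 the highest I/R array in 7 of 8, and Adrb3 is the panel in which all 3 DHI arrays lie above all 3 I/R arrays.

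The alpha-2 receptors act partly as autoreceptors on noradrenergic terminals, and they did not move alike. Adra2c had a log2 level of -1.61, -2.59 and -2.55 on the Sham arrays, -5.12, -5.28 and -2.53 on the I/R arrays, and -4.67, -2.47 and -2.25 on the DHI arrays. I/R 1, I/R 2 and DHI 1 formed the low set, and I/R 3 lay within the Sham range, so the groups overlapped. The fall in I/R was 4.17-fold (log2 difference -2.06, SE 0.87, adjusted p = 0.093). It was lost without any single Sham array (-2.23 to -1.74), without I/R 1 (-1.66), I/R 2 (-1.58) or DHI 2 (-2.06, with a larger SE), with no scaling (-1.86) and by the methods' t-test, and it widened to -2.95 without I/R 3. The difference in DHI versus I/R was 1.18 (SE 0.87, adjusted p = 0.35), which passed only without I/R 3 (2.08), without DHI 1 (1.95) or without both (2.85).

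Adra2b had a log2 level of -0.78, -1.49 and -1.40 on the Sham arrays, -2.49, -2.48 and -1.78 on the I/R arrays, and -2.42, -1.34 and -0.37 on the DHI arrays. All I/R arrays were below all Sham arrays, and the DHI arrays ran from the I/R range to above the highest Sham array. The log2 difference was -1.03 (SE 0.49, adjusted p = 0.127) in I/R versus Sham, which passed within the slide that held both groups (SE 0.29 on those 6 arrays), and 0.87 (SE 0.49, adjusted p = 0.25) in DHI versus I/R, which passed without DHI 1 (1.40). The probe lies at chr3:114869275-114869334 on the plus strand of rn4.

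Adra2a was the exception among the 8. Its log2 level was -3.69, -3.34 and -3.60 on the Sham arrays, -3.97, -3.93 and -2.92 on the I/R arrays, and -3.67, -4.70 and -4.34 on the DHI arrays. The 3 groups overlapped, DHI 2 and DHI 3 were the lowest of all arrays, and DHI 1, which was the lowest DHI array for the other 7 genes, was the highest DHI array here. The log2 difference was -0.06 in I/R versus Sham (95% interval -0.88 to 0.75, adjusted p = 0.895), -0.63 in DHI versus I/R (-1.44 to 0.19, adjusted p = 0.25) and -0.69 in DHI versus Sham (-1.5 to 0.12, adjusted p = 0.709). Without DHI 1 the DHI arrays were lower than I/R by 0.91 and than Sham by 0.97, both past the thresholds, and without I/R 3 the difference from Sham (-0.69) also passed. Its correlation with the other 7 genes over the 9 arrays ran from -0.56 to 0.07.

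Of the beta receptors, Adrb1 is the main cardiac and a common forebrain form, and Adrb3 is best known from fat cells and the bladder. Adrb1 had a log2 level of -4.10, -2.84 and -3.15 on the Sham arrays, -4.69, -5.04 and -4.55 on the I/R arrays, and -5.07, -3.71 and -4.01 on the DHI arrays. Every I/R array was below every Sham array, DHI 1 was the lowest of the 9, and DHI 2 and DHI 3 lay between the I/R arrays and the top of the Sham range. Adrb1 fell 2.63-fold in I/R (log2 difference -1.40, SE 0.43, adjusted p = 0.0433), and this call held with each of the 9 arrays left out in turn (-1.77 to -1.14). The difference in DHI versus I/R was 0.50 (95% interval -0.48 to 1.48, adjusted p = 0.412) and passed only without DHI 1 (0.90) or without I/R 3 and DHI 1 together (1.01). Against Sham the DHI arrays were lower by 0.90 on the log2 scale (adjusted p = 0.709). That difference passed without Sham 1 (-1.27), without DHI 2 (-1.17), with no scaling (-1.16) or with the replicate number as a block (-0.90).

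Adrb3 was 1 of the genes that the study took from these arrays for follow-up by qRT-PCR, so its change between DHI and I/R on the same arrays is not independent evidence for that choice. Its log2 level was -5.97, -5.80 and -4.56 on the Sham arrays, -6.92, -5.67 and -6.60 on the I/R arrays, and -5.41, -4.41 and -4.75 on the DHI arrays. All 3 DHI arrays were above all 3 I/R arrays, by 0.27 between the nearest, while the Sham arrays overlapped both groups. The group means of the log2 level were -4.86 ± 0.50 for DHI, -5.44 ± 0.77 for Sham and -6.40 ± 0.65 for I/R (SD, n = 3), an order in which DHI and Sham, and Sham and I/R, did not differ past the thresholds.

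The rise of Adrb3 in DHI versus I/R was 2.91-fold (log2 difference 1.54, SE 0.47, 95% interval 0.45 to 2.64, adjusted p = 0.196). The call held with each of the 9 arrays left out in turn, with a log2 difference from 1.28 without I/R 1 to 1.90 without I/R 2, its adjusted p ran from 0.0263 without DHI 1 to 0.539 without DHI 2 over all alternatives, and Adrb3 was the 1 receptor gene that the methods' t-test called in this comparison. An exact two-sided permutation test gave p = 0.1, the smallest that 3 against 3 can give. In I/R versus Sham its log2 difference was -0.96 (SE 0.47, adjusted p = 0.136). It passed under quantile normalization (-1.10), in the authors' normalized values (-1.10), with the replicate number as a block (-0.96) or without I/R 2 (-1.32). Without Sham 3 it shrank to -0.52, and the difference in DHI versus Sham, 0.58 (95% interval -0.51 to 1.68), became 1.03 and passed.

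Adrb3 was also a dim probe. Its processed signal, before scaling, was 41.1, 49.3 and 112 on the Sham arrays, 21.7, 60.1 and 35.7 on the I/R arrays, and 65.7, 85.3 and 78.7 on the DHI arrays, on arrays whose 75th percentile was 1816 to 3464. Its 2 spots differed by 0.03 to 0.23 on the log2 scale within an array, with a median of 0.13, which measures printing and scanning noise and not the spread between rats. With normexp background correction, which pulls dim values together, the log2 difference in DHI versus I/R was 0.92 and was called, and with no scaling between arrays it was 1.08 and was called. The probe lies at chr16:69166311-69166370 on the plus strand of rn4.

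Adrb3 also ordered the arrays differently from the other receptors. Among the I/R arrays I/R 2 was the highest for Adrb3, whereas I/R 3, the I/R array with the most neuronal marker signal, was the highest for the other 7 genes. For DHI 1, the log2 level was nearer to the I/R mean than to the Sham mean for 6 of 8 genes, and Adra1d and Adrb3 were the exceptions. DHI 2 and DHI 3 were each nearer to the Sham mean for 7 of 8. Adra2a was among the 6 for DHI 1 and was the exception for DHI 2 and DHI 3. Its I/R and Sham means differed by only -0.06, so nearness says little for that gene, and DHI 2 and DHI 3 lay below both means. The correlation of Adrb3 with the other receptors over the 9 arrays ran from -0.56 with Adra2a to 0.73 with Adra1b. None of the 3 tested adipocyte markers was called higher in DHI versus I/R. The summed adipocyte signal was 599% to 1665% of the Sham mean on the I/R arrays and 154% to 1401% on the DHI arrays. Cidec was well above background on 0 arrays and Plin1 on 2, and Fabp4 on 0 and Adipoq on 1 of the Sham arrays. The Sham mean in these percentages thus rests partly on signals not well above background. The part of these markers in the Adrb3 level was not tested.

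**Figure D4:**
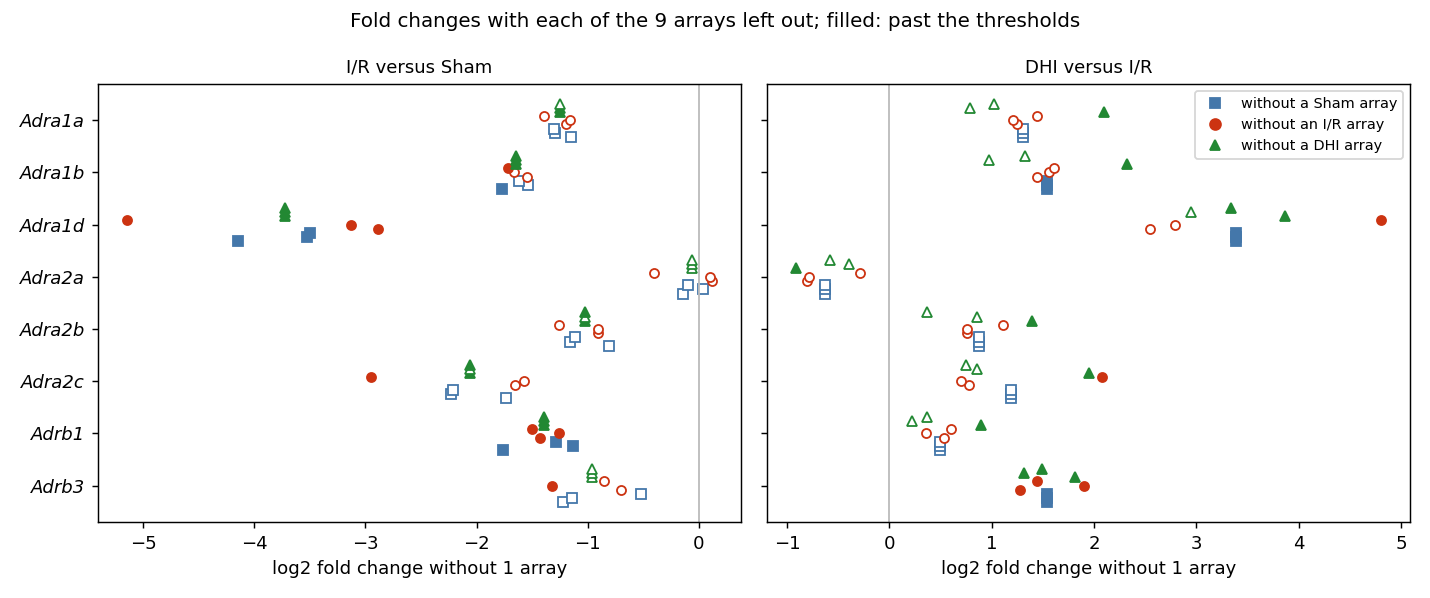
Log2 fold change of each receptor gene with each of the 9 arrays left out in turn, in I/R versus Sham (left) and DHI versus I/R (right), where filled symbols are past the thresholds. In DHI versus I/R the 9 Adrb3 values are all filled, between 1.28 and 1.90, and the value without DHI 1 is filled for all 8 genes. Without DHI 1, 10737 of all 23747 tested probes were called in that comparison.

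Leaving out DHI 1 changed more receptor calls than leaving out any other array. Without it, 8 of 8 were called in DHI versus I/R (7 higher and Adra2a lower), 6 of 8 in I/R versus Sham and 3 of 8 in DHI versus Sham (Adra1a and Adra1b higher, Adra2a lower). That fit called 10737, 10915 and 832 of all 23747 tested probes, in the same order. Without I/R 1, I/R 2 or DHI 2, by contrast, 1 of 8 was called in DHI versus I/R. This was Adrb3 each time, the gene that the study had already taken as changed on these arrays. Over all 23747 tested probes 1381, 1659 and 939 were called in those fits. With I/R 3 and DHI 1 both left out, a choice made after the values were seen, 7 of 8 were called in DHI versus I/R, beside 12223 of all tested probes. In these fits of DHI versus I/R the receptor count was low where few probes were called over the whole array and high where many were. Without I/R 3 it stayed at 3, although the calls over all probes went from 5211 to 7719. In DHI versus Sham the receptor count rose from 0 to 3 without DHI 1, while the calls over all probes went from 849 to 832.

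For Adra2c and Adrb1 the array probe can be placed at the end of the coding sequence. Both 60-base probes read without a stop codon in the frame of their first base until the last 3 bases, which are a stop codon and are shown in capitals.
Adra2c probe (rn4 chr14:81108144-81108203, minus strand): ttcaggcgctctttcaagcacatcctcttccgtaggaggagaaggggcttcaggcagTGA
Adrb1 probe (rn4 chr1:263026996-263027055, plus strand): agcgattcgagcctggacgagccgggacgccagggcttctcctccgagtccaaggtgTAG
These probes are shown because they read an alpha-2 and a beta receptor that fell in I/R. The file gave no position for the Adra2a probe, and exon annotation was not used here.

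The genes around the receptors were described from 5 lists of 51 genes, of which 49 were tested. In I/R versus Sham 10 rose and 21 fell, 63.3% of those tested beside 43.1% of all probes, and 23 had an adjusted p below 0.05. In DHI versus I/R 10 rose and 3 fell, 26.5% beside 21.9% of all probes, and none had an adjusted p below 0.05 in limma. That second count was 4 with only the 2 groups compared, 0 by the methods' t-test, 1 without I/R 1 or without DHI 2, and 30 without DHI 1. Over all 23747 tested probes these settings gave 2149, 469, 1381, 939 and 10737 calls, in that order.

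Of the genes for catecholamine synthesis, storage and clearance, 3 of 9 fell and 2 rose in I/R versus Sham, and 0 of 9 were called in DHI versus I/R. The supply of the ligand itself was not measured. Dbh, which makes noradrenaline from dopamine, fell by 2.82 on the log2 scale (adjusted p = 0.04), but its probe was well above background on 3 Sham, 1 I/R and 2 DHI arrays, so that it entered the test through Sham and its I/R level rests mostly on signals not above background. Slc22a3, a low-affinity carrier that clears catecholamines, fell by 2.40 (adjusted p = 0.0537), and Ddc, the decarboxylase that makes dopamine, fell by 1.60 (adjusted p = 0.0396). Maob, a monoamine oxidase that breaks catecholamines down, rose by 0.94 (adjusted p = 0.0409). Slc6a2, the noradrenaline carrier, had a log2 difference of 0.33 (adjusted p = 0.294), and Th, the first enzyme of the pathway, -1.34 (adjusted p = 0.152). The log2 level of Th had an SD of 1.65 over the Sham and 0.17 over the I/R arrays. Ddc, Slc6a2 and Th are named after their values were seen.

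Of the G protein alpha subunits, 4 of 8 fell and 2 rose in I/R versus Sham. Gnao1, the Go subunit abundant in neurons, fell by 1.85 (adjusted p = 0.0396) and rose by 1.23 in DHI versus I/R (adjusted p = 0.196). Gnai1 fell by 1.21 (adjusted p = 0.0437) while Gnai3 and Gnai2, the other Gi subunits, rose by 1.39 and 1.08 (both adjusted p = 0.0396), and Gnai3 then fell by 1.01 in DHI versus I/R (adjusted p = 0.196). Of the Gq class that serves alpha-1 receptors, Gna11 fell by 0.94 in I/R (adjusted p = 0.0405) and rose by 0.79 in DHI versus I/R (adjusted p = 0.196). Gnaq, of the same class, was called in neither comparison, with log2 differences of -0.87 (adjusted p = 0.154) and 0.76 (adjusted p = 0.268). Gna11 and Gnaq are named after their values were seen. Within the Gi class, then, members moved in opposite directions.

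The second-messenger enzymes showed the same split by gene. Of 12 adenylyl cyclases and phospholipase C beta enzymes, 7 fell and 3 rose in I/R versus Sham, and 4 rose and 2 fell in DHI versus I/R. Plcb1, a phospholipase C that Gq activates, fell by 2.60 (adjusted p = 0.0396), and Adcy1, a calcium-stimulated neuronal cyclase, fell by 2.58 (adjusted p = 0.0434). They rose by 1.74 and 2.00 in DHI versus I/R (both adjusted p = 0.196). Plcb2 and Adcy7, both known from blood-derived cells, rose by 3.87 and 2.36 in I/R (both adjusted p = 0.0396) and fell by 2.26 and 1.55 in DHI versus I/R (both adjusted p = 0.196).

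Of the protein kinase A subunits and cAMP phosphodiesterases, 10 of 12 were tested, Pde3a and Pde4c being well above background on too few arrays. In all, 6 fell and 1 rose in I/R versus Sham, and 3 rose in DHI versus I/R. Prkar1b, a regulatory subunit found mainly in neurons, and Pde4d, a cAMP phosphodiesterase, fell by 2.22 and 2.08 (adjusted p = 0.0413 and 0.0404) and rose by 1.64 and 1.37 in DHI versus I/R (both adjusted p = 0.196). Pde3b rose by 1.92 in I/R (adjusted p = 0.0511).

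The receptor kinases, arrestins and RGS proteins, which end receptor signalling, moved least in number, with 2 of 10 rising and 1 falling in I/R versus Sham and a median log2 difference of 0.06. Rgs4, a GTPase-activating protein for Gi and Gq subunits, fell by 3.28 (adjusted p = 0.0396) and rose by 2.10 in DHI versus I/R (adjusted p = 0.196). Grk4 and Arrb2 rose by 1.04 and 0.86 in I/R (adjusted p = 0.0405 and 0.0444). In DHI versus Sham, 2 of all 49 tested genes rose and 2 fell, 8.16% beside 3.58% of all probes.

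**Figure D5:**
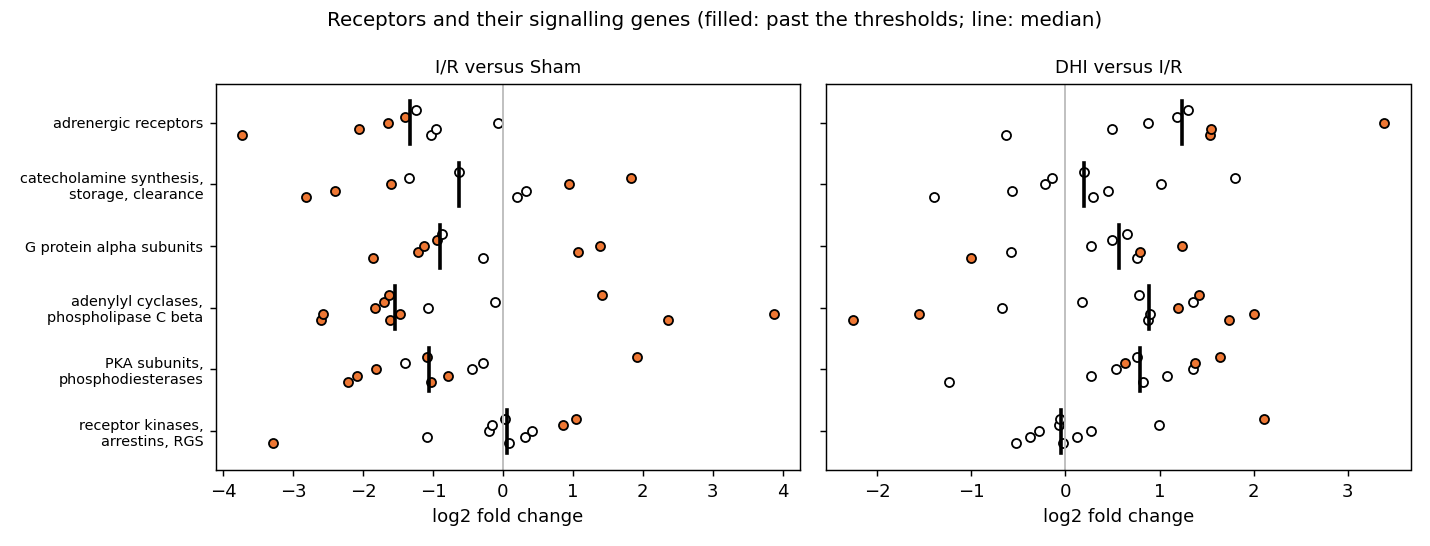
Log2 fold change (horizontal axis) of the 8 receptor genes and of the 49 tested genes of 5 signalling lists, 1 point per gene, in I/R versus Sham (left) and DHI versus I/R (right). Filled points are past the thresholds and the vertical line is the list's median, which is -1.32 and 1.24 for the receptors.

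Cell type markers moved beside these counts. In I/R versus Sham all 6 neuronal markers fell, with a median log2 difference of -2.69, and 5 of 6 microglia and macrophage markers rose, with a median of 3.68. In DHI versus I/R all 6 neuronal markers rose, with a median of 2.03, and 4 of 6 microglia and macrophage markers fell, with a median of -2.35. Of the 6 astrocyte markers, 4 rose and 1 fell in I/R versus Sham, and 2 fell in DHI versus I/R, and their summed signal was 149% to 199% of the Sham mean on the I/R arrays and 99.2% to 159% on the DHI arrays. Oligodendrocyte markers had 1 of 6 higher in each of these comparisons, and the endothelial and mural markers 1 of 6 higher in I/R versus Sham and none called in DHI versus I/R. Of the choroid plexus markers 1 of 4 tested rose in I/R versus Sham and 0 were called in DHI versus I/R, and of the adipocyte markers 2 of 3 tested were called higher in I/R versus Sham and 1 was then called lower in DHI versus I/R. Both, Fabp4 and Adipoq, entered the test through the I/R arrays, being well above background on 0 and 1 Sham arrays, 3 and 3 I/R arrays and 2 and 2 DHI arrays. The part of cell makeup in the receptor values was not tested.

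The genes whose log2 levels ran most nearly parallel to each receptor over the 9 arrays were named by Pearson correlation among 15817 other genes, as a description over arrays that share groups and slides. For Adrb3 these were Olr221 (an olfactory receptor, now Or2d3c, 0.925), Tet1 (a 5-methylcytosine dioxygenase, 0.924), Rlbp1 (a retinaldehyde-binding protein, 0.908), Fcrl1 (an Fc receptor-like protein known from B cells, 0.902, well above background on 6 arrays) and RGD1305347 (now C5h1orf210, 0.891). For the other genes the best 2 were closer. They were Mrps35 (0.995) and Senp2 (0.991) for Adra1a, Nf1 and Fzd7 (both 0.994) for Adra1b, and Neurod2 (0.993), a neuronal transcription factor, and Pgr (0.986) for Adra1d. Adra2a ran closest to Ptprg (0.957) and Ube2e3 (0.947), Adra2b to RGD1564419 and Plg (both 0.991), Adra2c to Rfx3 (0.996) and Caln1 (0.986), and Adrb1 to Mff and Pitpna (both 0.984).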

How the data were processed

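Agilent SurePrint G3 Rat one-color arrays of 9 brains (3 Sham, 3 I/R, 3 DHI) were used, grouped by their labels. The authors extracted the spot intensities with Agilent Feature Extraction 10.7.1.1, per the labels, and the deposited processed signals are background-corrected intensities. The deposited series table holds log2 values that the authors normalized between arrays. Its columns have medians near 7.58 and correlate at 0.99953 with quantile-normalized log2 signals computed here, so it served as an alternative. Here control spots were dropped, and so were outlier spots (392 to 725 of the 58717 non-control spots per array). The log2 signals of a probe's spots were averaged, and the log2 of the array's 75th percentile was subtracted. A probe was tested if 1 or more groups had it well above background on each of their 3 arrays (23747 of 30367 probes). On each array 75.2% to 78.9% of probes were well above background, and 3 arrays per group limit the precision.

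Tests used limma 3.58.1 (lmFit, eBayes) in R 4.3.3 on all 9 arrays, with the Benjamini-Hochberg adjustment over all tested probes, and were tested on simulated data. Alternatives were quantile normalization, no scaling, normexp (offset 50), the series table, other background filters, only the 2 groups compared, a block on replicate number, the adjusted p, the methods' t-test, and leaving out each array. Scaling moves the whole comparison: in DHI versus I/R 52.2% of calls were higher, against 45.8% with quantile normalization, 4.8% with no scaling, which shifts the median of all probes to -0.36, and 63.7% with normexp. Replicate numbers were not treated as pairs, since nothing in the labels ties them.

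The members and the gene lists were chosen with earlier results of these data known. Named genes were all 8 receptors and, per signalling list, up to 2 rises and 2 falls called in I/R versus Sham and the top 2 called in DHI versus I/R, plus the 5 most correlated genes for Adrb3 and 2 for each other receptor. A gene outside this rule is said to be so where it is named. Marker lists covered neurons, astrocytes, microglia and macrophages, oligodendrocytes, endothelial and mural cells, choroid plexus and adipocytes. Gene symbols are those of the array files. Motif and promoter sequences came from RefSeq (GRCr8), probe sequences and positions (rn4) from the array files, and the 2 builds were not mixed. The values of 1 gene that this rule names are not reported here.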

Additional observations from a re-analysis of the deposited data

How the results depend on the processing

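No receptor gene called in the main tests changed direction under any alternative. The 3 counts of receptors called, 4 in I/R versus Sham, 3 in DHI versus I/R and 0 in DHI versus Sham, became 2, 0 and 0 with the adjusted p. By the methods' t-test the 4 calls in I/R versus Sham were Adra1a, Adra1b, Adra2b and Adrb1. The count in DHI versus I/R was 1 by the methods' t-test and 7 without I/R 3 and DHI 1 together, and that in DHI versus Sham was 1 with no scaling, 1 with the replicate block and 3 without I/R 3 and DHI 1. With 1 array left out the 3 counts ran from 2 to 6, from 1 to 8 and from 0 to 3, and those of signalling genes (31, 13 and 4) from 22 to 35, 1 to 30 and 1 to 6. Over all 23747 tested probes, calls with 1 array left out ran from 7517 to 11539, 939 to 10737 and 344 to 2519. In DHI versus I/R they were 469 by the methods' t-test and 12223 without I/R 3 and DHI 1. In DHI versus Sham they were 1688 with no scaling, 1280 with the replicate block and 1207 without I/R 3 and DHI 1. Signalling genes called in DHI versus I/R were 4 with only the 2 groups compared, 0 by the t-test, 33 without I/R 3 and DHI 1, and 0 with the adjusted p, and in DHI versus Sham 2 by the t-test and 0 with the adjusted p. Small uncalled differences changed sign. Adra1a in DHI versus Sham (0.05) was -0.058 with quantile normalization, -0.21 with no scaling and -0.053 in the series table, and -0.46 to 0.85 with 1 array left out. Adra2a in I/R versus Sham (-0.06) was 0.13 with no scaling and -0.41 to 0.12 with 1 array left out. In DHI versus Sham, without I/R 3 and DHI 1, Adra1b (-0.10) was 0.68, Adra1d (-0.34) 0.14 and Adra2b (-0.15) 0.37, and with 1 array left out they ran from -0.67 to 0.68, -0.78 to 0.14 and -0.66 to 0.37. The causes were not tested.

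The replicate numbers were checked as a pairing: of 9 same-numbered pairs 4 had correlated deviations over 0.1 (-0.34 to 0.48), and 5 of the best matches were with the own number. With the replicate block, receptors called were 5, 3 and 1 in the 3 comparisons, beside 10410, 6313 and 1280 of all tested probes. The slide could not be fitted as a block beside DHI, and I/R versus Sham lies within 1 slide. Each receptor has 1 probe, so taking every probe changed nothing.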
